A study of Mus musculus with 20 samples.

Results

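Transthyretin, the product of the mouse gene Ttr, was followed on every array of a study that compared the brains of mice carrying a null mutation in the sodium-proton exchanger NHE1 with wild-type brains. All probes with the symbol Ttr were taken, and 1 of the 15245 probes on the arrays carried it (probe number 10763). Ttr is 1 of the 8319 features that had enough values for testing, a feature being a gene or a probe without a single gene name. The gene was chosen by its own ratios in these samples and by how far they spread between arrays of a region, so its values are given as a description without a test.

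The study hybridised 20 cDNA arrays of 2 channels, 5 for each of cortex, hippocampus, cerebellum and brain stem-diencephalon. One channel held amplified RNA of a region from an NHE1 null mouse, and the other held pooled RNA of that region from wild-type mice, which is the only control. In each region 3 arrays had the null RNA in channel 1 and 2 arrays, the dye swaps, had it in channel 2. The labels give no age, sex or strain. Whether each array number marks an animal of its own is not stated either, so the p-values below cover the spread of these samples alone, and that spread may be technical.

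Transthyretin carries thyroxine and, through retinol-binding protein, retinol. In the brain it is made above all by the epithelium of the choroid plexus, which secretes it into the cerebrospinal fluid. The choroid plexus hangs in the brain's ventricles, beside the hippocampus, the diencephalon, the cerebellum and the brain stem, and in dissected tissue Ttr is widely used as a sign that pieces of plexus came along. The same epithelium is marked by ion and sulfate transporters, carbonic anhydrases, keratins of simple epithelia and the secreted precursor Ecrg4.

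All values below are log2 ratios of null over wild type, centred on the median of each array, so that 0 is the median probe and 1 is a doubling. Which channel stands on top in the deposited ratios is not stated in the sources used here, and the direction of every value is therefore only likely: with the opposite order every sign turns. A ratio gives no level, so the regions could not be checked against their marker genes. An array had values for 6793 to 13963 of its probes. One swapped array appears under 2 regions, as number 1 of cerebellum and as number 2 of brain stem-diencephalon, and its copies correlated at r = 0.995 over 6748 probes. Eif2s3y, a Y-linked gene, lay between -1.36 and -0.44 on the 6 other arrays of number 1, between 0.93 and 1.64 on 11 arrays of the other numbers or of none, and at 1.71 on the repeated array. Ttr values and correlations with Ttr that rest on the repeated array are given with and without it where both exist. Genes that passed an adjusted test only with that array are named. Medians of gene lists, F test p-values, counts at an unadjusted p and shares of all features include that array.

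Ttr had a value on 18 of the 20 arrays, and these ran from -2.72 to 1.87, a span of 4.59 log2 units. In cortex, array 1 stood at -0.13, array 2 at -0.67, array 3 at -0.66 and the swapped array without a number at -0.73, while the swapped array 2 had no value. All 4 cortex values lay below 0, and 3 of them lay within a narrow band. In hippocampus, array 1 stood at 1.20, its swapped partner at 1.27, array 2 at 0.22, its swapped partner at 0.05 and array 3 at 0.98. All 5 hippocampus values lay above 0, with numbers 1 and 3 high and number 2 near 0 in both orientations. On hippocampus array 1 Ttr had the second highest ratio of 9058 features.

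The cerebellum and brain stem-diencephalon arrays did not share such a common side. In cerebellum, array 1 stood at 0.58, array 2 at -2.67, its swapped partner at -0.40 and array 3 at -0.23, and the swapped array 1, which is the repeated one, at -2.72. On array 2 Ttr was 6.38-fold lower in the null RNA, and only 6 of 11698 features had a lower ratio. In brain stem-diencephalon, array 2 stood at 1.87, array 3 at 0.26 and the swapped array 1 at -0.40, the repeated array stood at -2.71 and array 1 had no value. On array 2 of brain stem-diencephalon Ttr was 3.67-fold higher in the null RNA and had the highest ratio of all 11121 features. The values of these regions thus lay on both sides of 0 and covered most of the span seen over all arrays.

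**Figure D1:**
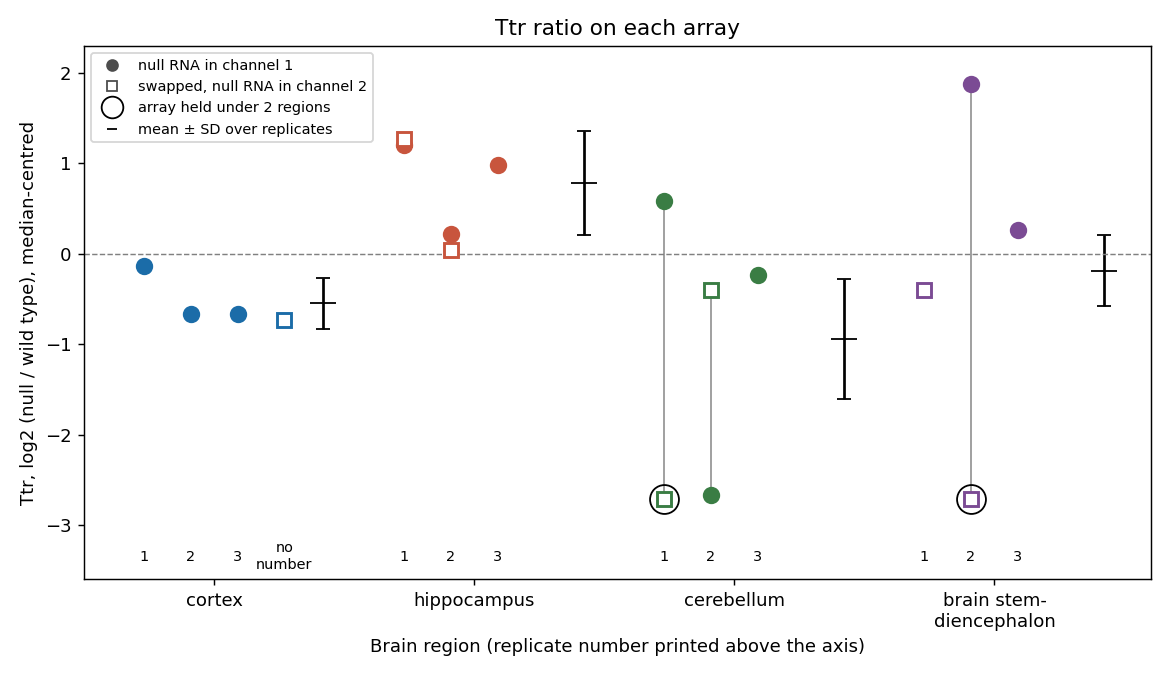
Ttr as log2 (null / wild type), centred on the array median (vertical axis), on each array by region and array number (horizontal axis). Filled circles have the null RNA in channel 1, open squares are swapped arrays, rings mark the repeated array, grey lines join arrays of one number, and black bars are the mean ± SD over replicates; cortex lay below 0 and hippocampus above 0, while cerebellum ran from -2.72 to 0.58 and brain stem-diencephalon from -2.71 to 1.87.

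Same-numbered arrays within a region were averaged to 1 replicate, and the unnumbered cortex array was kept as a replicate of its own, although it may repeat a numbered extract. Ttr averaged 0.78 ± 0.58 in hippocampus (SD, n = 3), a 1.72-fold higher amount in the null RNA, with all 3 replicates above 0. The hippocampus replicates stood at 1.24, 0.13 and 0.98. In cortex the mean was -0.55 ± 0.28 (SD, n = 4), a 1.46-fold lower amount, with all 4 replicates below 0. In these bulk samples fewer cells of a type and less RNA per cell cannot be told apart.

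In cerebellum the mean was -0.94 ± 0.66 (SD, n = 3), with replicates at -1.07, -1.54 and -0.23. Replicate 1 averages array 1, with Ttr at 0.58 and Eif2s3y at -0.77, and the repeated array, with Ttr at -2.72 and Eif2s3y at 1.71. The Eif2s3y ratios lie on opposite sides of 0, so this average and the SD that includes it may not stand for 1 sample. With the repeated array left out, replicate 1 stood at 0.58 and the mean lay nearer to 0 at -0.40 ± 1.07 (SD, n = 3). The replicates then fell on both sides of 0. In brain stem-diencephalon the mean was -0.19 ± 0.39 (SD, n = 3), with replicates at -0.40, -0.42 and 0.26. Replicate 2, at -0.42, averages array 2 at 1.87 and the repeated array at -2.71. These lie far apart on opposite sides of 0, so this average may not stand for 1 sample either. The SD of 0.39 does not show that gap, and over the 4 single arrays the SD was 1.90. With the repeated array left out replicate 2 stood at 1.87 and the mean was 0.58 ± 1.17 (SD, n = 3). The sign of this mean turned with that array, and it also turned, to 0.01, when the arrays were scaled to one spread with all arrays kept.

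From the lowest to the highest mean the order was cerebellum, cortex, brain stem-diencephalon and hippocampus with all arrays, and cortex, cerebellum, brain stem-diencephalon and hippocampus once the repeated array was left out. The replicates of each region overlapped those of its neighbours in either order. The cortex replicates, from -0.73 to -0.13, did not overlap the hippocampus replicates, from 0.13 to 1.24. The cerebellum replicates also lay below those of hippocampus, but not without the repeated array, when cerebellum replicate 1 stood inside the hippocampus range. These separations are part of what selected the gene and were not tested.

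The spread of Ttr between arrays also differed between regions. Its SD over single arrays was 0.28 in cortex (4 arrays), where the median SD of all 8319 features was 0.24 and 2944 features spread more widely. In hippocampus the SD of Ttr was 0.57 (5 arrays) against a median of 0.22, and 164 features were wider. In cerebellum it was 1.51 (5 arrays) against a median of 0.22, with 2 features wider, and in brain stem-diencephalon 1.90 (4 arrays) against 0.22, with none wider. Without the repeated array the SD was 1.40 in cerebellum, with 3 features wider, and 1.17 in brain stem-diencephalon, with 4 features wider. Ttr was therefore among the most variable features of cerebellum and brain stem-diencephalon with or without that array, and near the middle of all features in cortex.

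**Figure D2:**
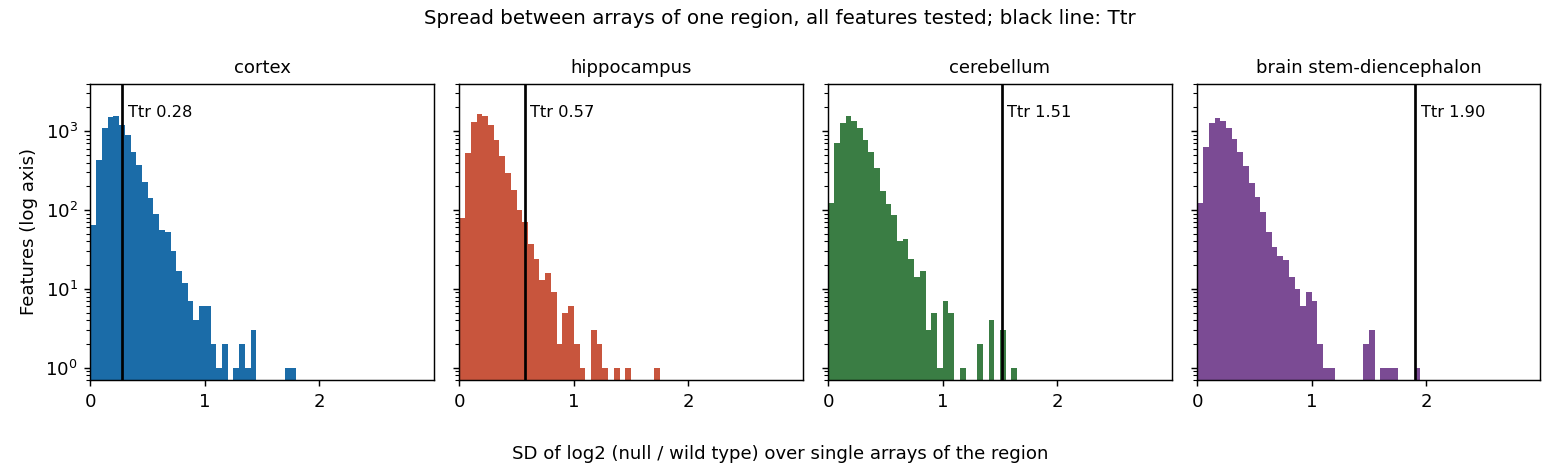
Number of features (vertical axis, log scale) by the SD of their log2 (null / wild type) over the single arrays of a region (horizontal axis), for all 8319 features tested. The black line marks Ttr, within the bulk in cortex (0.28), towards the edge in hippocampus (0.57) and at the far end in cerebellum (1.51) and brain stem-diencephalon (1.90).

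Arrays that share a number in a region were set against each other, since a swapped partner should give a like value if both held the same extract. The labels do not say that partners shared an extract. Hippocampus number 1 differed by 0.06 between its orientations and number 2 by 0.17, against median gaps of 0.25 and 0.19 over all features of these pairs. In cerebellum the arrays of number 2 differed by 2.28, against a median gap of 0.23, and no other of the 8036 features measured on both had a wider gap. This pair does not involve the repeated array. The gap of cerebellum number 1 was 3.30, with 1 of 4862 features wider, and that of brain stem-diencephalon number 2 was 4.59, with 0 of 5352 wider. Both of these gaps have the repeated array on one side. The high and low Ttr values thus recurred in both orientations in hippocampus and did not in the other pairs.

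Other genes of the choroid plexus epithelium were then read on the same arrays. A list of 46 such genes, without Ttr, had 19 genes with a probe, and 14 of these had enough values for testing. Several defining markers, among them Kl, Aqp1, Folr1, Kcnj13, Kcne2 and Clic6, had 0 probes under their symbols in the tables used here. Of the genes with a probe, Otx2, Calml4, Car12 and Ecrg4 had values on 9, 14, 4 and 11 arrays and missed the filter, and Wfdc2 had none.

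Ecrg4, the secreted precursor of augurin and an abundant choroid plexus transcript, followed Ttr closely on the 11 arrays where both had a value. It stood at -1.56 on cerebellum array 2 and at 1.46 on array 2 of brain stem-diencephalon, its lowest and highest values, on the same arrays as the lowest and highest Ttr values outside the repeated array. In hippocampus it stood at 0.64 on array 1, 0.48 on its swapped partner, 0.41 on array 2, 0.00 on its swapped partner and 1.0 on array 3. On cerebellum arrays 1, 3 and swapped 2 it stood at -0.01, -0.14 and -0.14, and on cortex array 2 at -0.08. Ecrg4 had no value on the repeated array. The correlation of Ecrg4 with Ttr was r = 0.95 (n = 11 arrays), with a slope of 0.59 log2 units per unit of Ttr, second among 10488 features that shared at least 10 arrays with Ttr. Without the 2 arrays farthest from the median it was 0.80 (n = 9) and ranked 43rd. This likeness over single arrays was looked for after the data were seen, and the arrays share their dyes and, within a region, the wild-type pool.

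The highest likeness over single arrays was that of Dok4, an adaptor protein that is phosphorylated by receptor tyrosine kinases and that is not on the choroid plexus list. Its only probe, number 40, is named from the platform annotation, and whether the spotted clone is Dok4 was not tested. Dok4 stood at -1.21 on cerebellum array 2, at 0.82 on array 2 of brain stem-diencephalon and between 0.06 and 0.54 on the 5 hippocampus arrays. Its 4 cortex values lay between -0.36 and 0.00. Its correlation with Ttr was r = 0.98 (n = 15) with a slope of 0.44, and it was 0.95 (n = 13) without the 2 farthest arrays. Probe number 45, which carries 2 gene symbols and is therefore left unnamed, was the third highest with r = 0.89 (n = 18). It stood at -1.73 on cerebellum array 2 and at 1.26 on array 2 of brain stem-diencephalon, but only at -0.58 on the repeated array. Without the repeated array its correlation was 0.99 (n = 16), the highest of all, and it was 0.97 (n = 14) without the 2 farthest arrays as well.

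Lbp, which codes for lipopolysaccharide-binding protein and is on the choroid plexus list, was the fourth highest with r = 0.87 (n = 16). Without the repeated array it had 0.74 (n = 14) and ranked 12th. Without the 2 farthest arrays too it had 0.63 (n = 12) and ranked only 476th of 10488 features. It stood at -0.30 on cerebellum array 2, at -0.84 and -0.73 on the copies of the repeated array, and at 0.43 on array 2 of brain stem-diencephalon. The repeated array therefore carried its lowest values, where Ttr was lowest as well. Next came Dgcr6 with r = 0.83 (n = 17), Mcrip1 with 0.82 (n = 14), C1qtnf5, a secreted C1q-like protein, with 0.81 (n = 15), Sppl2b with 0.79 (n = 10) and Dlst with 0.79 (n = 18). With the repeated array left out, Dgcr6 had 0.66 (n = 15), Sppl2b 0.58 (n = 8) and Dlst 0.59 (n = 16), while Mcrip1 and C1qtnf5 had no value on that array and kept theirs. With the 2 farthest arrays left out too, C1qtnf5 had 0.86 (n = 13), Dgcr6 0.70 (n = 14), Sppl2b 0.69 (n = 6) and Dlst 0.48 (n = 14). None of these 5 genes is on the choroid plexus list.

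**Figure D3:**
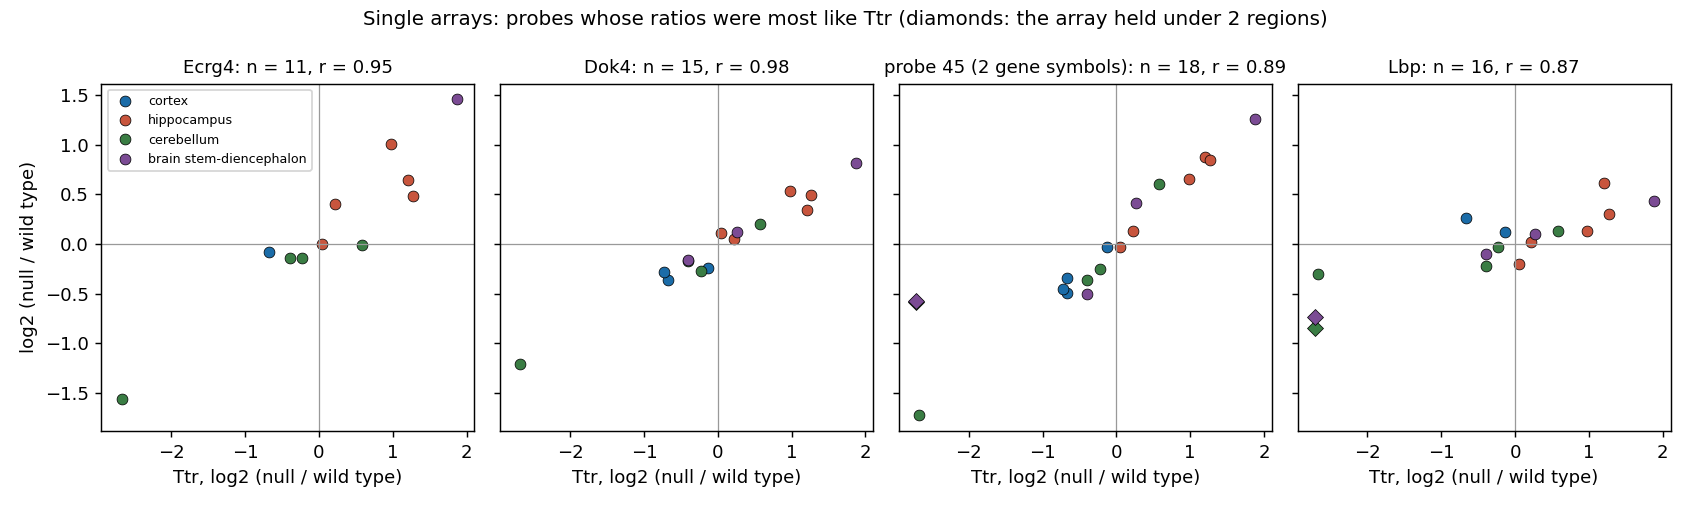
Log2 (null / wild type) of Ecrg4, Dok4, probe 45 and Lbp (vertical axis) against that of Ttr (horizontal axis), 1 point per array, coloured by region, with diamonds for the copies of the repeated array. Points of Ecrg4 and Dok4 rise with Ttr (r = 0.95 and 0.98), those of probe 45 do so except on the repeated array, and those of Lbp rise less steeply (slope 0.24).

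The remaining choroid plexus genes with at least 10 shared arrays had lower correlations with Ttr. Ezr, which codes for ezrin of apical microvilli, had r = 0.70 (n = 18), and 0.42 (n = 16) without the repeated array. Krt18, a keratin of simple epithelia, had r = 0.47 (n = 18), and 0.22 (n = 16) without that array. Spint2, a serine protease inhibitor, had 0.41 (n = 15), the membrane-bound carbonic anhydrase Car14 0.41 (n = 15), Calml4 0.33 (n = 13) and the keratin Krt8 -0.01 (n = 14), none of them with a value on the repeated array. The sulfate transporter Slc13a4 had -0.18 (n = 16) with that array and 0.18 (n = 14) without it, the growth factor Igf2 -0.25 (n = 18) and -0.04 (n = 16), and the anion exchanger Slc4a2 0.12 (n = 18) and 0.42 (n = 16). The other 5, Cab39l, Dab2, Perp, Pla2g5 and Slc31a1, lay between -0.08 and 0.39 with it and between 0.05 and 0.33 without it. With the 2 farthest arrays left out too, Igf2 had -0.58, Cab39l -0.35, Slc4a2 0.53 and Slc31a1 0.50 (n = 14 each). The rest of these genes then lay between 0.02 and 0.44. On cerebellum array 2, where Ttr was at -2.67, the 14 tested genes ran from -0.49 to 0.10 and 9 of them lay below 0. On array 2 of brain stem-diencephalon, where Ttr was at 1.87, the 12 with a value ran from -0.80 to 0.43 and 9 lay above 0. On each copy of the repeated array, where Ttr was lowest at -2.72 and -2.71, 5 of the 9 with a value lay below 0. Over all 20 arrays the median of the tested genes lay between -0.13 and 0.17. A median of several genes is narrower than single genes are: single tested genes ran from -1.03 to 1.15 on single arrays. Ecrg4, a list gene that missed the filter, is not among them and ran from -1.56 to 1.46. How much choroid plexus each sample held was not measured, and its part in the Ttr values was not tested.

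The same 14 genes were tested in each region against 0 with limma, adjusted by the Benjamini-Hochberg method over all features at a threshold of 0.05. The test called 0 of 14 in cortex, where 4.12% of all features were called, and 0 of 14 in hippocampus, where 0.661% were called. It called 0 of 14 in cerebellum against 3.07% of all features, and 0 of 14 in brain stem-diencephalon against 0.361%. At an unadjusted p under 0.05, limma gave 3 of 14 in cortex beside 27.7% of all features, 3 of 14 in hippocampus beside 14.1%, 0 in cerebellum beside 22.5% and 0 in brain stem-diencephalon beside 13.5%. The median of the list was -0.03 in both cortex and cerebellum and 0.05 in both hippocampus and brain stem-diencephalon, beside medians of all features between 0.00 and 0.01. In hippocampus, where Ttr was highest, 10 of the 14 estimates lay above 0, beside 9 in brain stem-diencephalon and 6 each in cortex and cerebellum. The hippocampus estimates above 0 included Spint2 at 0.44 ± 0.14 (SE, adjusted p = 0.189) and Krt18 at 0.23 ± 0.09 (adjusted p = 0.244). Igf2 had the lowest hippocampus estimate at -0.48 ± 0.13 (adjusted p = 0.122).

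Averaged over the 4 regions, 2 of the 14 genes passed limma's test, where 26.1% of all features did. The test of the mean, here and below, takes the replicates as independent. Those of cerebellum number 1 and brain stem-diencephalon number 2 share the repeated array. Deviations from region means correlated at -0.03 to 0.57 between same-numbered replicates of different regions. Igf2, a growth factor made by choroid plexus, meninges and vessels, fell by 0.24 ± 0.07 (SE, adjusted p = 0.0187) and lay below 0 in 11 of 13 replicates. Its call ended without cortex replicate 4, the unnumbered array (adjusted p = 0.0578), on leaving out replicate 2 of cerebellum (0.0602) or replicate 1 of brain stem-diencephalon (0.0546). Slc13a4 rose by 0.14 ± 0.04 (SE, adjusted p = 0.0377), above 0 in 11 of 12 replicates, and this call was lost in 14 of 22 settings, among them the one that leaves out the repeated array (adjusted p = 0.181) and those that leave out the unnumbered cortex array or any single replicate of the other regions but cerebellum replicate 3 (from 0.0515 to 0.126). The share called, 2 of 14, was below that of all features, so it shows nothing particular to these genes. The other 12 tested genes did not pass in any region or in the mean: the anion exchanger Slc4a2, the copper importer Slc31a1, the endocytic adaptor Dab2, the desmosomal protein Perp, the phospholipase Pla2g5, Cab39l, Car14, Ezr, Krt8, Krt18, Lbp and Spint2.

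**Figure D4:**
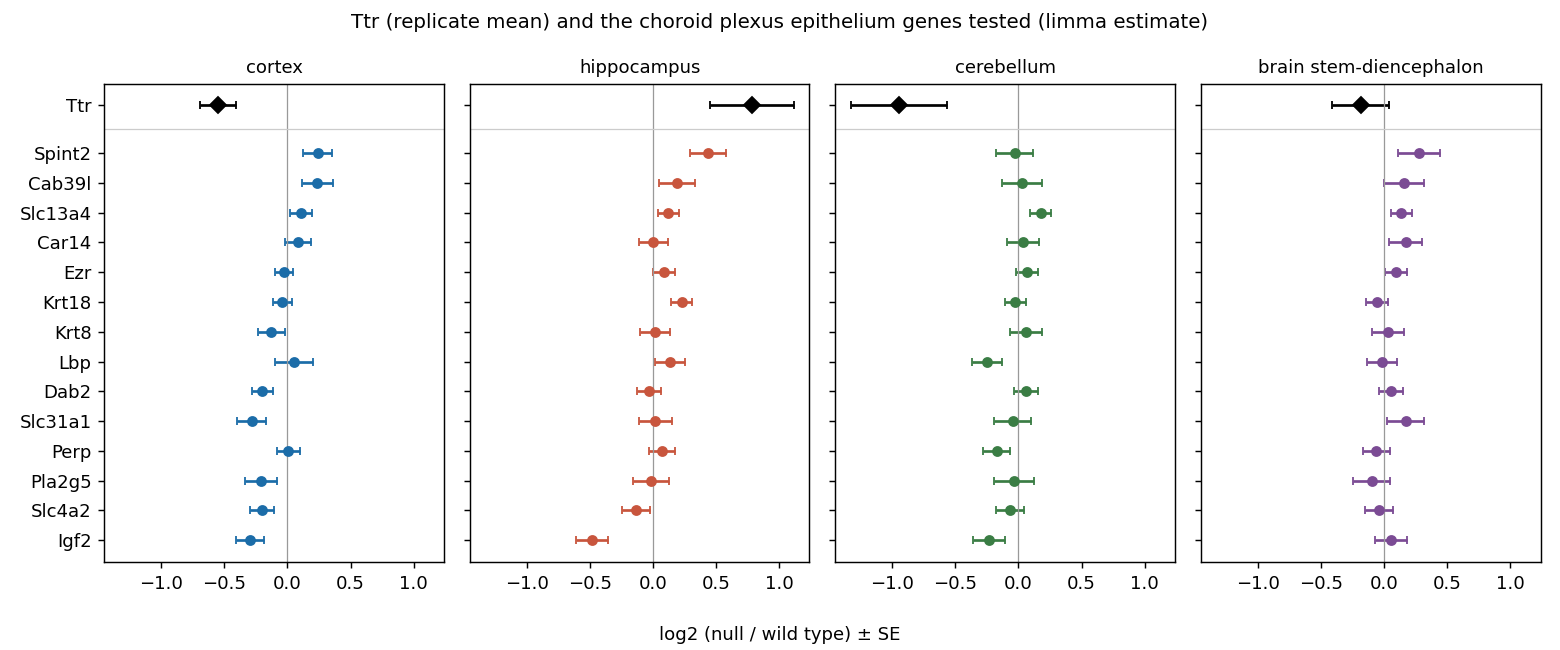
Log2 (null / wild type) ± SE (horizontal axis) of the 14 tested choroid plexus genes from limma (circles), and the mean ± SE over replicates of Ttr (diamonds), in each region. With all arrays Ttr ranges from -0.94 in cerebellum to 0.78 in hippocampus, while the 14 genes lie between -0.48 and 0.44. None of the 14 passed the test in a single region. Without the repeated array the Ttr mean was -0.40 in cerebellum and 0.58 in brain stem-diencephalon. Ecrg4 missed the filter and is not shown.

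Since transthyretin carries thyroxine and retinol, genes that handle these molecules were read beside it. Of 38 such genes 13 had a probe and 11 were tested. Aldh1a1, which turns retinaldehyde into retinoic acid, fell by 0.49 ± 0.09 in cortex (SE, limma adjusted p = 0.0157), with all 4 replicates below 0. It stood at -0.47 ± 0.12 in hippocampus (adjusted p = 0.108), -0.01 ± 0.11 in cerebellum (0.976) and -0.23 ± 0.11 in brain stem-diencephalon (0.381). Ncoa1, a coactivator of nuclear hormone receptors, rose by 0.55 ± 0.11 in cerebellum (adjusted p = 0.0225) in all 3 replicates, but did not pass once the repeated array was left out (adjusted p = 0.111). In the mean of the regions 4 of the 11 passed, beside 26.1% of all features: Ncoa1 and the retinal reductase Rdh11 rose by 0.37 ± 0.06 and 0.24 ± 0.06 (adjusted p = 0.000961 and 0.0081), and Aldh1a1 and Dhrs3, which reduces retinaldehyde, fell by 0.30 ± 0.06 and 0.24 ± 0.06 (0.00365 and 0.0147). Of these, the calls of Rdh11, Aldh1a1 and Dhrs3 ended without the unnumbered cortex array (adjusted p = 0.0925, 0.0528 and 0.0531), and that of Dhrs3 also ended without the repeated array (0.0724) and without brain stem-diencephalon replicate 2 (0.0517). The median of the 11 genes was 0.01 in the mean of the regions, the same as that of all features.

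Among 28 genes known to respond to thyroid hormone, 9 had a probe and all 9 were tested. None was called in a single region, and 2 of 9 rose in the mean, where 26.1% of all features were called in either direction: the transcription factor Klf9 by 0.44 ± 0.10 (SE, limma adjusted p = 0.00707, above 0 in 10 of 13 replicates) and the malic enzyme Me1 by 0.27 ± 0.07 (adjusted p = 0.0107, above 0 in 13 of 13). The call of Klf9 ended without the unnumbered cortex array (adjusted p = 0.101), and that of Me1 held in every one of the 22 settings tried. The median of the 9 genes was 0.07 in the mean, beside 0.01 for all features.

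Of 20 genes for other secreted proteins of the cerebrospinal fluid, 12 had a probe and 10 were tested. In the mean of the regions 3 of the 10 were called, beside 26.1% of all features. Cst3, the gene of cystatin C, fell by 0.42 ± 0.08 in cortex (SE, limma adjusted p = 0.0235), with all 4 replicates below 0. It stood at -0.16 ± 0.10 in hippocampus (adjusted p = 0.482), 0.36 ± 0.10 in cerebellum (0.0563) and -0.05 ± 0.10 in brain stem-diencephalon (0.864). Gsn, which codes for the actin-severing protein gelsolin, fell by 0.48 ± 0.11 in cerebellum (adjusted p = 0.0338) and by 0.34 ± 0.06 in the mean (0.00137). With the repeated array left out Gsn did not pass in cerebellum (adjusted p = 0.0585), while its call in the mean held in all settings. Scg3 and Sparcl1 rose in the mean by 0.17 ± 0.05 and 0.24 ± 0.07 (adjusted p = 0.0172 and 0.0287), and neither passed once the repeated array was left out (0.0639 and 0.0778). Both also missed the threshold without the unnumbered cortex array or replicate 2 of hippocampus, cerebellum or brain stem-diencephalon (from 0.0506 to 0.128), and Sparcl1 without cortex replicate 2 (0.0746).

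Genes of the tissues that adjoin the choroid plexus were read in the same way. Of 22 genes of the meninges 9 were tested, of 18 genes of the ependyma 5, and of 20 genes of vessels and blood 5. No ependymal gene was called in a region or in the mean. In the mean 2 of 9 meningeal genes and 3 of 5 vessel and blood genes were called, beside 26.1% of all features. Of the meningeal genes Slc6a13, a transporter of GABA and taurine, rose by 0.21 ± 0.05 in the mean (SE, limma adjusted p = 0.0104) and the proteoglycan Bgn fell by 0.19 ± 0.05 (adjusted p = 0.0198). Neither passed when the repeated array was left out (adjusted p = 0.109 and 0.0529). Slc6a13 also missed it without brain stem-diencephalon replicate 2 (adjusted p = 0.0667), and Bgn without the unnumbered cortex array (0.0972) or replicate 2 of hippocampus, cerebellum or brain stem-diencephalon (0.0591, 0.0629 and 0.0535). The endothelial gene Pecam1 fell by 0.53 ± 0.10 in hippocampus (adjusted p = 0.0282) and by 0.44 ± 0.07 in the mean (0.00173), below 0 in 12 of 12 replicates. The globin gene Hbb-b1 rose by 0.63 ± 0.15 in cortex (adjusted p = 0.0433) and by 0.56 ± 0.10 in the mean (0.00297), and its close copies can share a cDNA probe. Its call in the mean ended without the unnumbered cortex array (adjusted p = 0.0834). The endothelial cadherin Cdh5 fell by 0.53 ± 0.17 in the mean (adjusted p = 0.0383), and did not pass with the repeated array (0.0982) or the unnumbered cortex array (0.246) left out, nor without hippocampus replicate 2 or any replicate of cerebellum or brain stem-diencephalon (from 0.0559 to 0.107).

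The 3 cortex calls, of Aldh1a1, Cst3 and Hbb-b1, all ended without cortex replicate 4, the unnumbered array (adjusted p = 0.379, 0.424 and 0.545), and without replicate 3 (0.064, 0.0789 and 0.135). Cst3 and Hbb-b1 also missed the threshold without cortex replicate 2 (adjusted p = 0.0557 and 0.102), and Hbb-b1 without hippocampus replicate 2 or cerebellum replicates 2 or 3 (0.0546, 0.0697 and 0.0605). The calls of Pecam1 in hippocampus and of Ncoa1 and Gsn in cerebellum each ended without any single replicate of their own region, at adjusted p from 0.0728 to 0.314. Pecam1 also missed it without cerebellum replicate 2 (0.0674) or brain stem-diencephalon replicate 3 (0.0562), and Gsn without the unnumbered cortex array (0.053) or brain stem-diencephalon replicate 3 (0.0583). Over these 6 lists with 49 tested genes, limma called 3 in cortex (4.12% of all features), 1 in hippocampus (0.661%) and 2 in cerebellum (3.07%). In brain stem-diencephalon it called 0 (0.361%), while 8 had an unadjusted p under 0.05, beside 13.5% of all features. In the mean of the regions 14 of 49 were called, 8 higher and 6 lower, beside the 26.1% of all features given above.

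Whether a list gene differed between regions, as the Ttr values did, was asked with limma's F test of equality of the 4 regions. It called 0% of all 8319 features after adjustment, and 4.22% (351 features) had an unadjusted p under 0.05. Of the choroid plexus genes 0 of 14 reached that level, with Igf2 the nearest (unadjusted p = 0.0514). Of the other lists 4 genes reached it, Cst3 (unadjusted p = 0.000221, adjusted p = 0.23), Aldh1a1 (unadjusted p = 0.015), Ncoa1 (0.0323) and Col1a2 (0.0374), and the adjusted p of the last 3 was 0.999. All 4 of these genes had their lowest estimate in cortex and their highest in cerebellum with all arrays. Ttr was highest in hippocampus, and lowest in cerebellum with the repeated array and in cortex without it. With that array left out, 6 list genes in place of 4 had an unadjusted p under 0.05 in limma's F test. The share of all features in that setting is not given here, so this count cannot be set against it.

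The genes most like Ttr were also sought over the 13 replicates, among the 5468 features with a value in all of them. The 8 highest were Snrpc (r = 0.84), Rtf1 (0.82), Btbd9 (0.79), Cox4i1 (0.76), and Rtn4ip1, Tmem258, Ddx21 and Ap1m1 (0.75 each), where 5% of all features were above 0.57. Without the repeated array the correlation was 0.18 for Snrpc, 0.71 for Rtf1, 0.62 for Btbd9, 0.57 for Cox4i1, 0.50 for Tmem258, 0.72 for Ddx21 and 0.40 for Ap1m1. After the mean of each region was removed the 8 highest were Crebbp (0.90), Gaa (0.87), Larp1 (0.86), Adgrg1 (0.85), Eef2 (0.84) and Nsun4, Ube2s and Prpf31 (0.83 each), and 5% of all features were above 0.69. With that array left out Crebbp had 0.78, Larp1 0.72, Eef2 0.56, Ube2s 0.48, Nsun4 0.46, Gaa 0.41 and Prpf31 0.15. The replicates of cerebellum number 1 and brain stem-diencephalon number 2 share the repeated array, so these points are not independent. The genes found over replicates and those found over single arrays had no name in common among those given here. For most of the single-array names this was fixed in advance, because they were not among the features with a value in all replicates. Dok4, Lbp, C1qtnf5 and Sppl2b had no value on cortex array 3. Mcrip1 had none on either array of brain stem-diencephalon number 2, and Ecrg4 missed the filter.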

How the data were processed

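The authors deposited log ratios of the channels of each array, already centred near 0, and these were taken as log2. Neither their log base nor the scanner or the normalization is named in the sources used here. Signal over background is not used here. How precise the values are depends on the number of arrays. Swapped arrays were multiplied by -1 and each array was centred on its median. Symbols came from the platform annotation and were updated by Entrez ID (9496 of 9604 single symbols matched). Features needed values on at least 3 arrays of each region and 1 of each orientation, and probes of a gene were averaged. Arrays of a region with one number were averaged. A linear model per feature held terms for region and orientation, with variances moderated by limma 3.58.1 (R 4.3.3) and Benjamini-Hochberg adjustment over all 8319 features at 0.05. The fit was tested on simulated data. The targeted gene is not reported here.

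Ttr and the gene lists were chosen with earlier results of these data known. Named were Ttr, measured choroid plexus genes, up to 4 genes with the smallest p from each other list, genes with an F test p under 0.05, and the 8 most like Ttr by each measure. Sparcl1 and the choroid plexus markers with 0 probes were named outside that rule, after their values were seen. Alternatives covered centring, scaling, the orientation term, a replicate block, the repeated array, single orientations, the filter, the moderation and each replicate left out.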

Additional observations from a re-analysis of the deposited data

Results flagged for a closer look

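Ttr on cortex array 1 stood apart from the other 3 cortex replicates, at -0.13 against -0.73 to -0.66, a gap that was 0.892 of the whole range of cortex. Gsn also had 1 cortex replicate apart from the other 3, at 0.13, with a gap of 0.847 of its range. The spread of Ttr between arrays is part of what selected the gene, so its flag is a description without a test. Chance flags about 1 in 20 such groups. The number of groups examined is not given here, so the flags cannot be set against that rate. With 3 replicates each, the other regions were too small to be examined in this way.

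The mean of Ttr in cortex minus that in hippocampus was -1.33, with every cortex replicate below 0 and every hippocampus replicate above 0. This difference was not tested. The mean in hippocampus minus that in cerebellum was 1.73, with every replicate of cerebellum below 0 when the repeated array is included. Without that array the cerebellum mean was -0.40, with 2 replicates below 0 and 1 above, so the difference was smaller. It was not tested either.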

How the results depend on the processing

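The mean Ttr ratio kept its sign and moved by less than 1 SD in cortex, hippocampus and cerebellum under each alternative tried. In brain stem-diencephalon it was 0.01 with arrays scaled to one spread, 0.58 without the repeated array, 1.07 on the channel 1 arrays alone and -1.56 on the swapped arrays alone. Leaving out each replicate in turn gave -0.69 to -0.49 in cortex and 0.56 to 1.11 in hippocampus. It gave -1.30 to -0.65 in cerebellum and -0.41 to -0.07 in brain stem-diencephalon. The SD of Ttr in cerebellum and brain stem-diencephalon was 1.51 and 1.90 over single arrays, and 1.07 and 1.17 over replicates without the repeated array. Ttr has 1 probe, so reading each probe on its own gave no further value.

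The number of choroid plexus genes called was 2 in cortex and 1 in hippocampus without the channel 1 arrays of number 1, and 1 in cerebellum with no filter beyond an estimable fit. In the mean of the regions it was 1 with arrays scaled to one spread, without an orientation term, without the repeated array and on complete features, and 0 with the replicate block. Leaving out each replicate gave 0 to 3 in cortex and 0 to 2 in the mean. No share of all features stands beside these counts, so they show nothing particular to the choroid plexus genes.

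For the other lists together, without the channel 1 arrays of number 1, 10 passed in cortex and 10 in cerebellum, 2 in hippocampus and 22 in the mean. A variance trend with robust moderation gave 0 in cortex, 0 in hippocampus and 0 in cerebellum. Without the repeated array the counts were 0 in cerebellum and 8 in the mean. Complete features gave 0 in hippocampus, 4 in cerebellum and 9 in the mean, and the fit without an orientation term gave 4 in cerebellum and 1 in brain stem-diencephalon. Leaving out each replicate gave 0 to 11 in cortex and 0 to 1 in hippocampus, 0 to 6 in cerebellum and 6 to 17 in the mean. Shares of all features called are given for the main fit alone, so no count under an alternative has a share beside it. Whether the counts of the choroid plexus genes and of the other lists moved with those of all features was not tested. The cause of these shifts was not tested either. No call changed sign.

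With the replicate number as a block (consensus correlation 0.23) the other lists had 7 calls in cortex and 6 in cerebellum, and 8 list genes had an F test p under 0.05 in place of 4. The block also ended the calls of Igf2 (adjusted p = 0.0548), Slc13a4 (0.113), Slc6a13 (0.0541), Cdh5 (0.0517) and Sparcl1 (0.0576) in the mean. Deviations from region means correlated between same-numbered replicates of different regions at -0.03 to 0.57 over 18 pairs, and not every pair was above 0.1. The labels do not say what a number marks, and Eif2s3y differed between number 1 and the other numbers in all 4 regions, so the numbers were not used as pairs, and what the samples of one number share was not tested. Of the 6 calls in single regions 0 held under every setting, and of the 16 in the mean 4 did.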
